A study of Mus musculus with 5 samples.

Results

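The mitochondrial genome was examined in chromatin precipitated with a Foxa1 antiserum from mouse liver. Its 16299 positions in mm8 were divided into 326 bins of 50 bp, or 652 when each strand was counted separately, out of 52614478 bins of that size over the 21 nuclear chromosomes and the mitochondrial one. The bins were chosen by position alone, and no count was used to select them. Within this circle, the control region was taken from 15423 to 16299 (877 bases) and the ribosomal RNA stretch from 70 to 2675 (2606 bases), and the remaining 12816 bases were called the rest. The series holds 5 libraries of 1 condition, wild-type CD1 outbred males of 2 to 3 months, without an input or other control library among the files used here. Each chromatin preparation came from 100 mg of frozen liver, and fragments of about 200 bp were amplified by 18 cycles of PCR. The libraries held 3672991 to 8239957 reads of 36 nt, and only those of replicates 4 and 5 contained reads on the mitochondrial chromosome. The headers of these files name them WT4 and WT5, and that of replicate 3 also carries WT4, while the study describes all 5 libraries as biological replicates.

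Mitochondrial DNA is a small circle present in many copies per cell, and hepatocytes are rich in mitochondria. It encodes subunits of the respiratory chain, such as those of cytochrome c oxidase (COX1, COX2 and COX3), together with the rRNAs and tRNAs used to translate them. In the reference gene table (GRCm38.p6, used here for names and order only) there were 37 mitochondrial genes, 13 protein-coding, 22 for tRNAs and 2 for rRNAs. The rRNA stretch holds mt-Rnr1 and mt-Rnr2, for the small and the large ribosomal RNA, with the tRNA gene TrnV between them. The control region follows TrnP and carries the promoters of both strands and the origin of heavy-strand replication. Foxa1 is a winged-helix transcription factor that acts on nuclear DNA. The mouse nuclear genome also contains copies of mitochondrial sequence (numts), among them a long and nearly identical one on chromosome 1. A read that fits such a copy and the mitochondrial genome equally well has no unique best alignment, and the authors had retained only reads with one. No mm8 sequence was used here, so no mitochondrial sequence is printed and the uniqueness of each position was not measured.

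Mitochondrial reads numbered 12814 in replicate 4 and 20345 in replicate 5. They made up 0.156% (95% Wilson interval 0.153 to 0.158%) and 0.290% (0.286 to 0.294%) of the reads of these libraries. Replicates 1 to 3 held 0 mitochondrial reads among 3672991, 4944832 and 4761021. Whether mitochondrial lines were removed from these files or never produced is not stated in the sources used here. Had they been kept, a count of 0 would allow shares of up to 8.17e-05%, 6.07e-05% and 6.30e-05% (3 reads of each total), and otherwise these limits do not apply. All intervals take reads, ends or positions as independent and leave out differences between libraries. Reads of amplified libraries are not independent molecules, so intervals on reads are narrower than the error of counting molecules. Intervals on ends or positions do not allow for the uneven spread of ends over bins.

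Reads with the same 5′ position and strand were counted once, as distinct 5′ ends. This left 5533 ends in replicate 4 and 3700 in replicate 5, which is 339 and 227 per kb of mitochondrial DNA. On the nuclear chromosomes the same measure gave 1.80 and 0.560 ends per kb. The mitochondrial density was therefore 188-fold and 405-fold the nuclear density in replicates 4 and 5, a log2 ratio of 8.11 ± 0.78 (SD, n = 2). With all reads counted, these folds were 251 and 470. The exact sign-flip permutation test over 2 libraries cannot go below p = 0.5 (two-sided), the value found here, so no comparison of this kind can pass a threshold. As no input was used, enrichment by the antiserum and abundance of mitochondrial DNA in the chromatin cannot be told apart.

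The mitochondrial ends carried more reads each than nuclear ones. A mitochondrial end was seen 2.32 times on average in replicate 4 and 5.50 times in replicate 5, against 1.73 and 4.74 times for nuclear ends. In replicate 4, 42.1% of mitochondrial ends and 54.97% of nuclear ends rested on 1 read, and 9.94% and 2.19% on 5 or more. In replicate 5, 9.76% and 10.96% rested on 1 read, and 50.3% and 45.1% on 5 or more. At this density separate fragments can also begin at the same base, and their part in these counts was not tested.

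**Figure D1:**
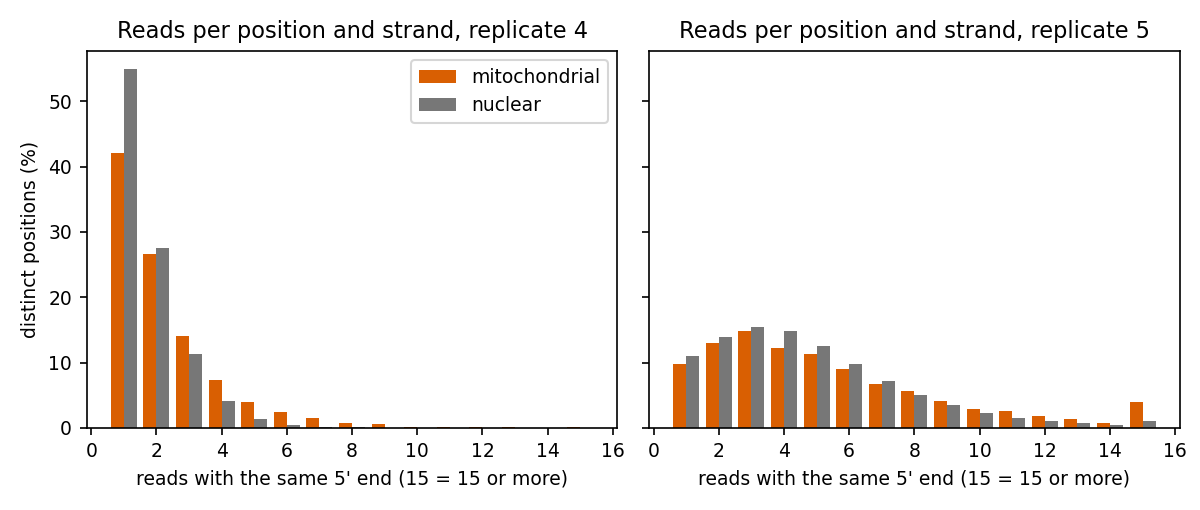
Percentage of distinct 5′ ends (y axis) by the number of reads that shared the end (x axis, 15 standing for 15 or more) on the mitochondrial and the nuclear chromosomes. In replicate 4 fewer mitochondrial (42.1%) than nuclear ends (54.97%) rested on 1 read, and in replicate 5 the mitochondrial bars were the higher ones at 15 or more.

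The reads of replicate 5 were closer to exhausting their library. When its reads were thinned to the 12814 of replicate 4, 3460 distinct ends were left by expectation, against 5533 in replicate 4. Thinning to 90% of the reads kept 98.9% of the distinct ends of replicate 5 and 95.5% of those of replicate 4. The larger mitochondrial read number of replicate 5 thus went with fewer distinct mitochondrial ends. On the nuclear chromosomes replicate 5 had both fewer reads (6986669 against 8227143) and fewer distinct ends (1473182 against 4742472).

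Mitochondrial read ends were absent from a long stretch in both libraries. Of the 326 bins, 99 (30.4%) held no read end on either strand in replicate 4 or 5. Of these, 91 were consecutive, from 6451 to 11000, and covered 27.9% of the genome. No base from 6429 to 11008 (4580 bases) was covered by a read in either library. The limits differed little between libraries and strands. In replicate 4 the last read before the run began at 6391 on the plus strand and at 6388 on the minus strand, and the first after it at 11013 and 11009. In replicate 5 the same positions were 6393 and 6387, and 11012 and 11018. Judged by the leftmost base of the read, the runs without reads were 4618 to 4630 bases long over the strands of both libraries. Outside the bins without ends, 94.7% and 94.1% of bases were covered in replicates 4 and 5. Whether the bases of this run also occur in the nuclear genome of mm8 was not tested.

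A shorter run without coverage lay within the control region, from 15688 to 15893 (206 bases). It was 206 bases long in replicate 4 and 213 in replicate 5. Further uncovered runs, of 114, 83 and 82 bases in both libraries together, lay at 5236 to 5349, 5067 to 5149 and 5676 to 5757. The block from 5001 to 5500 accordingly held the fewest ends of the 500 bp blocks with any, 72 and 45 in replicates 4 and 5. The block from 12001 to 12500 held the most, 345 and 225. Bins empty on one strand but not on the other were fewer, 11 on the plus strand and 6 on the minus strand in both libraries.

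**Figure D2:**
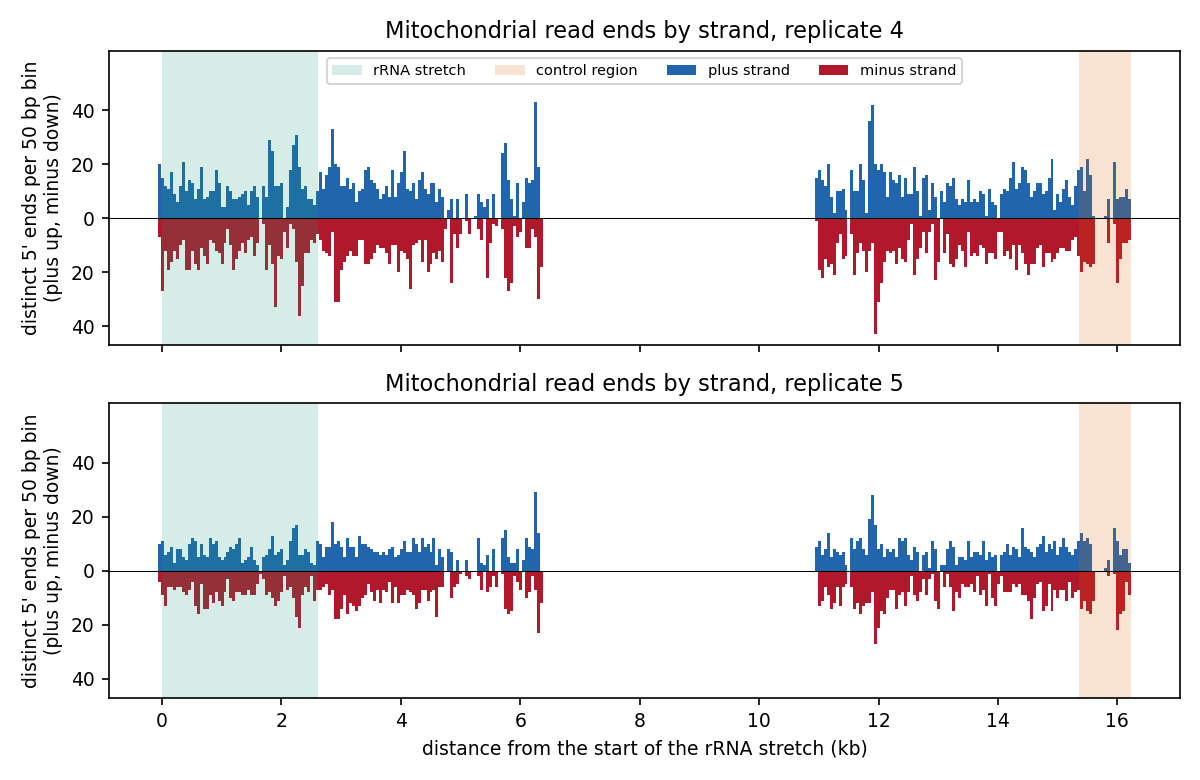
Distinct 5′ ends per 50 bp bin (y axis, plus strand upward and minus strand downward) along the mitochondrial genome (x axis, kb from the start of the rRNA stretch) in replicates 4 and 5, with the rRNA stretch and the control region shaded. The 91 consecutive bins without ends lie in the same place in both libraries.

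The rRNA stretch was compared with the rest of the circle. Its positions held an end in 24.6% of cases in replicate 4 (95% Wilson interval 23.5 to 25.8%) and 15.9% in replicate 5 (14.9 to 16.9%), against 15.3% (14.9 to 15.8%) and 10.2% (9.87 to 10.6%) in the rest. This is 1.61-fold and 1.55-fold the rest, a log2 ratio of 0.66 ± 0.04 (SD, n = 2, exact sign-flip permutation p = 0.5, the smallest possible). The rest contains the long run without reads. When the bins without ends were left out of the rest, it held an end at 24.4% and 16.3% of positions, and the ratios for the rRNA stretch became 1.01-fold and 0.976-fold (log2 -0.01 ± 0.04). Outside bins without ends, the rRNA stretch thus differed from the rest in distinct ends by less than the spread of the 2 libraries. These bins were left out by their own counts, 95 of 256 in the rest and 0 of 52 in the rRNA stretch. The share of the rest could therefore only rise. With all reads in place of distinct ends and the empty bins left out, the ratios were 0.944 and 0.935, lower than the rest in both libraries.

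The control region gave the same pattern with a wider spread. It held 318 ends in replicate 4 and 249 in replicate 5, at 18.1% (16.4 to 20.002%) and 14.2% (12.6 to 15.9%) of its positions. Its ratio to the rest was 1.18-fold and 1.39-fold (log2 0.36 ± 0.16, SD, n = 2, exact sign-flip permutation p = 0.5). The ratio turned to 0.744 and 0.873 when bins without ends were left out of the rest. Leaving them out of the control region as well gave 0.964 and 1.13, on either side of the rest (log2 0.06 ± 0.16). Outside bins without ends, the control region thus differed from the rest by less than the spread of the 2 libraries.

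**Figure D3:**
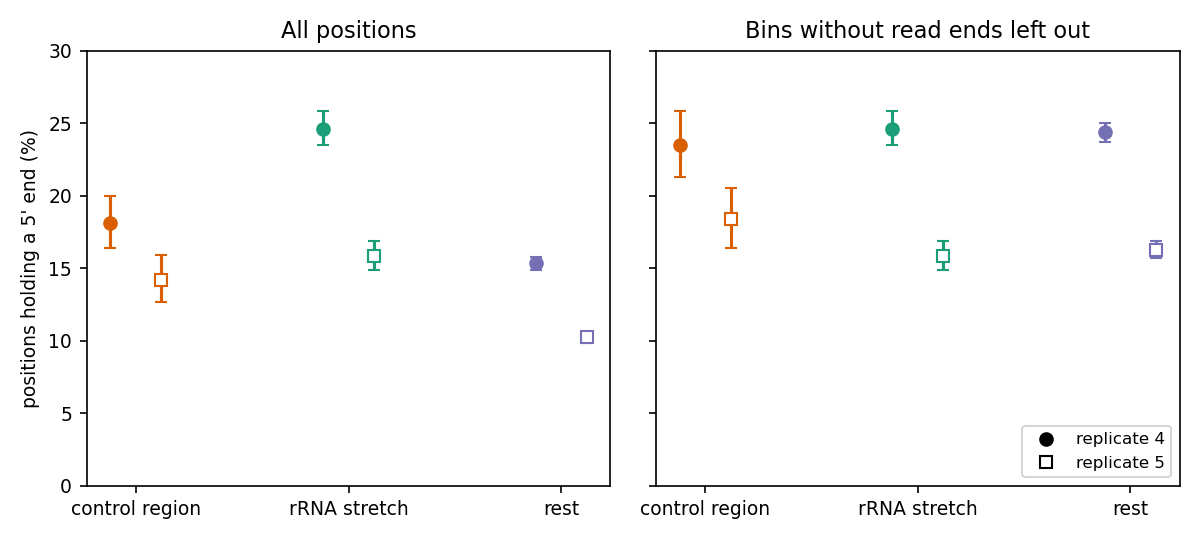
Percentage of positions, over both strands, that hold a distinct 5′ end (y axis) in the control region, the rRNA stretch and the rest, in replicates 4 and 5. Error bars are 95% Wilson intervals that take positions as independent. With all positions (left) the rest lies lowest in both libraries, and without the bins that hold no ends (right) the 3 regions of a library lie close together, at 23.5 to 24.6% in replicate 4 and 15.9 to 18.4% in replicate 5.

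Within the control region the ends were unevenly placed. The part before its uncovered run, from 15423 to 15687, held 172 and 123 ends, or 649 and 464 per kb, in replicates 4 and 5. The part after it, from 15894 to 16299, held 146 and 126 ends, or 360 and 310 per kb. The latter part includes a bin without ends, from 15951 to 16000, and without it held 410 and 354 ends per kb. Both libraries were denser before the run than after it, with or without this bin, where the linear sequence ends. Reads across the junction of the circle are not in the linear reference, and in the files reads ran at most 4 bases past either end. These parts were set after the uncovered run was seen, and no test was made.

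Bins with many ends were found in all regions. Of the 652 bins by strand, 57 (8.74%) held at least 2 times the median bin of their library in both libraries, with medians of 8 and 6 ends. These medians include the 217 and 220 bins by strand without ends in replicates 4 and 5, which lower them. The rRNA stretch contained 10 of these among its 104 bins by strand (9.62%). The control region contained 7 among 36 (19.4%), and the rest 40 among 512 (7.81%). These shares include bins empty on both strands. Such bins were 0 of 52 in the rRNA stretch, 4 of 18 in the control region and 95 of 256 in the rest. The shares are thus not on like terms, with each other or with the 8.74% over the whole genome. Bins with ends numbered 52 in the rRNA stretch, 14 in the control region and 161 in the rest, each with 2 strands. Set against these, the 10 bins of the rRNA stretch were a smaller share than the 40 of the rest, and the 7 of the control region the largest share. The count of 57 depended on every setting tried. With bins of 100 bp, 15 of 326 (4.60%) met the same rule, with all reads 93 bins and at 1.5-fold 145. Replicate 4 alone gave 119 bins and replicate 5 alone 91.

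The plus-strand bins with the most ends were followed by minus-strand bins with the most ends. On the plus strand the bin from 6301 to 6350, upstream of the uncovered run that begins at 6429, held 43 ends in replicate 4 and 29 in replicate 5, the highest in both. The minus-strand bin next to it, from 6351 to 6400, held 30 and 23. The plus-strand bins from 11901 to 11950 and from 11951 to 12000 held 36 and 42 ends in replicate 4, and 19 and 28 in replicate 5. Downstream of these, the minus-strand bins from 12001 to 12050 and from 12051 to 12100 held 43 and 31 ends in replicate 4, and 27 and 21 in replicate 5. In the rRNA stretch the plus-strand bin from 2301 to 2350 had 31 and 17 ends in the 2 libraries, and the minus-strand bin from 2351 to 2400 had 36 and 21. Plus-strand ends from 2901 to 2950 (33 and 18) were likewise followed by minus-strand ends from 2951 to 3000 (31 and 18). The minus-strand bin from 3001 to 3050 tied with the last of these, also with 31 and 18 ends. The 10 highest bins by strand, and this tied one, were thus in adjoining pairs or groups, plus before minus. The lowest bins all tied at 0 ends.

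Across bins with ends, the plus-strand count matched the minus-strand count of the next bin better than that of the same bin. Pearson's r was 0.17 in replicate 4 and 0.23 in replicate 5 for the same 50 bp (227 bins), 0.61 and 0.66 for a minus bin 50 bp downstream (219 bins), 0.57 and 0.44 at 100 bp, and 0.08 and 0.15 at 200 bp. Spearman's rho at 50 bp was 0.51 and 0.55. These values describe bins of the same library that share depth, and neighbouring bins are not independent. The distance from plus ends to minus ends was then counted over all pairs, relative to the mean at distances over 300 and up to 500 bp. Mitochondrial pairs formed a low plateau, at 1.30 and 1.30 times this mean for 1 to 50 bp and 1.33 and 1.30 times for 51 to 100 bp in replicates 4 and 5. They fell to 1.18 and 1.13 times at 101 to 150 bp. On the autosomes the pairs formed a sharp maximum at 78 and 71 bp, and at 51 to 100 bp were 5.29 and 13.7 times the mean. The mitochondrial maximum was nearer, at 34 and 43 bp, and hardly above the plateau (1.38 times in both libraries). A plus and a minus read over the same bases have their ends about 1 read length (36 nt) apart. The uniqueness of each position was not measured. The part of this spacing in the maximum and in the match of neighbouring bins was not tested. Per 100 plus ends, pairs at 1 to 150 bp exceeded the mean by 933 and 575 on the mitochondrial genome and by 38.6 and 46.8 on the autosomes, the opposite order to the ratios. Both measures depend on the density of ends, so the heights of the curves are not comparable between the genomes.

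**Figure D4:**
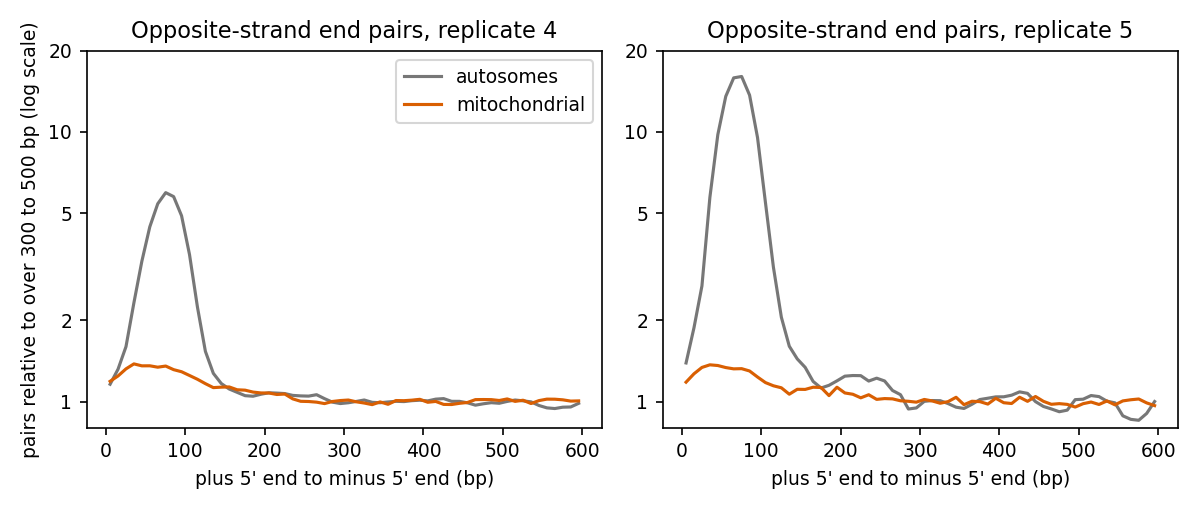
Frequency of pairs of a plus-strand and a minus-strand 5′ end (y axis, relative to the mean over 300 to 500 bp, log scale) by the distance between them (x axis, bp) on the mitochondrial genome and on the autosomes. Mitochondrial pairs are most frequent below 100 bp (1.33 and 1.30 times at 51 to 100 bp in replicates 4 and 5) and those of the autosomes at 78 and 71 bp, where the heights of the curves depend on the density of ends and are not comparable between the genomes.

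Mitochondrial reads favoured the minus strand of the reference. Of the distinct ends, 52.8% (95% Wilson interval 51.4 to 54.1%) were on the minus strand in replicate 4 and 53.2% (51.5 to 54.8%) in replicate 5. On the 19 autosomes the minus-strand share was 49.7 to 50.2% in both libraries, and on chromosome Y, with few reads, 51.4% and 46.9%. With all reads the mitochondrial shares were 55.1% (54.2 to 55.9%) and 55.8% (55.1 to 56.5%), against 49.65 to 50.2% and 49.5 to 50.3% on the autosomes. Minus-strand ends also carried more reads, 2.42 per end against 2.20 on the plus strand in replicate 4, and 5.77 against 5.19 in replicate 5. The log2 ratio of plus to minus ends was -0.17 ± 0.02 (SD, n = 2, exact sign-flip permutation p = 0.5). Of the 227 bins with ends, the minus strand was higher in both libraries in 96 and the plus strand in 59, while 39 went opposite ways and 33 had a tie in at least 1 library. In all regions the minus strand was the higher one. In the control region it held 169 and 139 ends against 149 and 110 on the plus strand in replicates 4 and 5, in the rRNA stretch 685 and 452 against 599 and 375, and in the rest 2065 and 1376 against 1866 and 1248. The base composition of the strands, which differs strongly in mitochondrial DNA, was not examined, and its part in this difference was not tested.

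The 2 libraries resembled each other bin by bin. Over the 227 bins with ends, the summed ends of both strands had a Pearson's r of 0.78 and a Spearman's rho of 0.66 between libraries, and over all 326 bins, with the shared empty run, 0.92 and 0.88. Bins with ends held a median of 24 ends (0 to 63) in replicate 4 and 16 (0 to 44) in replicate 5. The variance over these bins was 4.61 and 3.06 times the mean, more than counting alone gives. Of the exact end positions, 1401 were found in both libraries, which is 25.3% of those of replicate 4 and 37.9% of those of replicate 5. When replicate 5 was displaced by 5 or 10 bp in either direction, 1119 to 1206 positions coincided, so that exact matches were 1.20 times as frequent as the mean of these. At displacements of 50 bp, 975 and 967 coincided. Most mitochondrial end positions of each library were thus not found in the other. Outside bins without ends, ends held 24.4% and 16.3% of positions in replicates 4 and 5. Ends placed evenly and separately there would match at 16.3% of the ends of replicate 4 and 24.4% of those of replicate 5. Both observed shares were higher than these. The uneven density of ends was not allowed for, and no value expected for copied libraries was at hand.

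**Figure D5:**
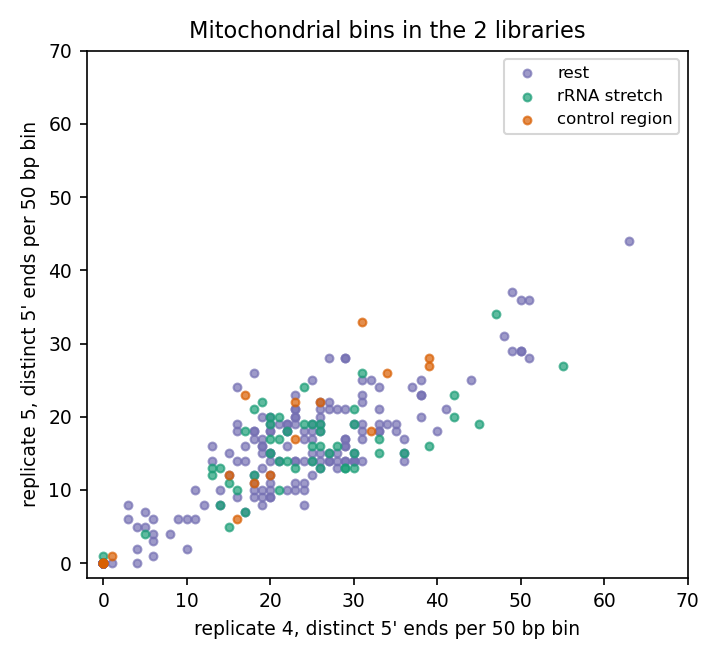
Distinct 5′ ends per 50 bp bin, both strands summed, in replicate 4 (x axis) and replicate 5 (y axis), with each bin coloured by region. The bins rise together (Pearson's r of 0.78 over the 227 bins with ends), and bins of the control region and the rRNA stretch lie among those of the rest.

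Some bins departed between the libraries. Among 375 bins by strand with at least 10 reads in each library, the difference in the log2 share of mitochondrial reads between replicates 5 and 4 had a median of -0.01 and an SD of 0.75. The largest differences were on the minus strand from 11751 to 11800, with 16 reads at 9 ends in replicate 4 and 103 reads at 16 ends in replicate 5 (log2 2.02). The minus-strand bin from 11601 to 11650 had 15 and 96 reads, although 6 ends were found in each library (log2 2.01). On the plus strand from 14801 to 14850, 10 reads at 9 ends in replicate 4 stood against 64 reads at 13 ends in replicate 5 (log2 2.01). The opposite direction was seen on the minus strand from 11501 to 11550, with 32 and 13 reads at 14 and 5 ends (log2 -1.97). In the rRNA stretch the largest difference was on the minus strand from 2601 to 2650, with 12 and 71 reads at 9 and 11 ends (log2 1.90).

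No position dominated the mitochondrial reads. The most frequent end of replicate 4, at 6335 on the plus strand, had 17 reads, or 0.133% of the mitochondrial reads. That of replicate 5, at 16103 on the minus strand in the control region, had 33 reads, or 0.162%. The 10 most frequent ends together held 1.17% and 1.43% of the reads, and the most frequent 10% of ends held 28.1% and 26.6%. The rest held 71.0% and 70.9% of all distinct ends in replicates 4 and 5, and the rRNA stretch 23.2% and 22.4%. Of the 10 ends that were most frequent in both libraries, 8 lay in the rest and 2 in the rRNA stretch, near these shares. The highest was at 12999 on the plus strand, with 12 and 21 reads, followed by 6408 on the minus strand, with 16 and 19 reads, and 12149 on the minus strand, with 11 and 23. In the rRNA stretch the ends at 2380 and 2389 on the minus strand had 9 and 14 reads in replicate 4, and 19 and 12 in replicate 5.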

How the data were processed

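Each library came as 1 list of read positions, deposited by the authors with a line for every aligned read and no measured value besides. According to the study's methods, ELAND (its version is not given in the sources used here) placed the 36 nt reads on NCBI Build 36 (mm8), and reads without a unique best placement were discarded. Reads with the same position and strand occur more than once in the deposited lists. From these positions, the 5′ ends of the mitochondrial reads of replicates 4 and 5 were counted by base and strand with Python 3.11.15, NumPy 2.4.6, SciPy 1.17.1, pandas 2.3.3 and Matplotlib 3.10.9. Copies were counted once. Depth was 12814 and 20345 mitochondrial reads (5533 and 3700 distinct ends). The Wilson intervals rest on all reads of a library for mitochondrial shares, on positions for regions, and on mitochondrial ends or reads for strand shares. Nuclear densities used the largest read end of each of 21 chromosomes as its length.

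Log2 ratios per library were tested with an exact two-sided sign-flip permutation test, and 2 libraries cannot go below p = 0.5. GLITR, which the study ran against input, was not used. Named items were the control region, the rRNA stretch, the 5 highest and 5 lowest bins per strand by mean rank, the 10 positions with the highest smaller share of the 2 libraries, runs of at least 4 empty bins, and the 5 bins with the largest difference between libraries at 10 or more reads. Further uncovered runs, blocks of 500 bp, parts of the control region, the most frequent end of each library and the chromosome 1 stretch were picked once their values were known. The regions and measures were chosen with earlier results of these data known. Simulated reads were used to check the saturation-corrected region ratios, the strand ratio, the limits of an empty run and the thinning. The uncorrected ratio of a region to the rest, the main measure here, was not held to a limit in that check. Gene coordinates of GRCm38.p6 were not used. Alternatives were the copies, a cap of 5 reads, a correction for saturation, ends moved 100 bp, region edges of 100 bp, the definition of the rest, thinning, autosomes alone, 100 bp bins, a 1.5-fold rule and each library left out.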

Additional observations from a re-analysis of the deposited data

Results flagged for a closer look

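A stretch of chromosome 1 of mm8 held reads in every library, replicates 1 to 3 included. It was found by a search of the 21 nuclear chromosomes, set after it had been seen, for clusters of read ends at most 72 bp wide, with at least 10 distinct ends in each library, in surroundings otherwise without reads over at least the 4580 bases of the uncovered mitochondrial run. Only 1 place met the search. Between 24565084 and 24571214 (6130 bp), all reads of the 5 libraries ended within 24567002 to 24567054 or 24567361 to 24567423. Replicates 1 to 5 held 65, 30, 37, 25 and 29 distinct ends there, on 127, 44, 47, 45 and 117 reads. Replicates 1 to 3, which have no mitochondrial lines, entered no comparison of bins. Their counts here were at least 10 by the terms of the search. Whether the reads at this stretch came from mitochondrial DNA was not tested.

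Replicate 5 stood apart from the other 4 libraries in its nuclear reads per distinct end, at 4.74. The inverse of this measure, distinct ends as a share of nuclear reads, was 21.1% in replicate 5 and was not flagged. Of 3 measures examined in this way, which are not all separate, chance alone flags about 1 in 20.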

How the results depend on the processing

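Of 37 alternative values, 22 kept their direction and stayed within set limits, 10 moved past them and 5 changed sign. The limits were the SD of the 2 libraries for ratios and 1.5 times for counts of bins. With 2 libraries, leaving either one out shifts a ratio by less than their SD. Such values, which are among the 22, could therefore not count as moved. The changes of sign were all in the comparisons of regions, when bins without ends were left out. For the control region the log2 ratio of 0.36 became -0.31 with these bins left out of the rest, 0.062 with them left out of both (added after the data were seen) and -0.055 with all reads as well. For the rRNA stretch, 0.66 became -0.010, -0.010 and -0.090 in the same order, of which the -0.010 (the same value under both settings) is a difference within the SD of the 2 libraries, with replicate 4 still above the rest. It was 0.58 with all reads, 0.61 with at most 5 reads per position and 0.72 corrected for saturation. The strand ratio was -0.32 with all reads. The 57 bins with at least 2-fold the median became 15 of 326 with 100 bp bins, 93 with all reads and 145 at 1.5-fold. By single library the bins numbered 91 to 119, the control region ranged from 0.24 to 0.47, the rRNA stretch from 0.63 to 0.68, the strand ratio from -0.18 to -0.16 and the mitochondrial to nuclear ratio from 7.56 to 8.66. No paired analysis was possible because there is 1 condition, so no groups share replicate numbers, and ratios of regions and strands were taken within each library. Depth limits all statements to 3700 to 5533 distinct ends per library.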
